A study of Mus musculus with 24 samples.

Results

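Control Kupffer cells (KCs), the resident macrophages of the liver, were compared with control hepatic endothelial cells (ECs), the other cell type that lines the liver sinusoid. The libraries were chosen by their labels as control libraries of these 2 sorted populations, 3 of KCs and 3 of ECs, which makes 6 of the 24 RNA-seq libraries of the series. The study deletes the ligands *Gdf2* (BMP9) and *Bmp10* in hepatic stellate cells, or *Smad4* in blood cells with Vav1-Cre, and the 6 libraries come from the controls of the first experiment. Another 3 libraries, of control macrophages of the *Smad4* experiment (genotype labelled Smad4FF, strain C57BL/6, also 8 to 10 weeks old), served as a yardstick only. The mice of the 6 libraries were C57BL/6, 8 to 10 weeks old, and carried floxed alleles of *Gdf2* and *Bmp10* without the Lrat-Cre transgene, so that no gene was deleted in either group. KCs were sorted from collagenase-digested liver as CD45+Ly6C-F4/80+CD64+ cells and labelled as liver macrophages. ECs were sorted as CD45-CD31+ cells, a gate that takes endothelium of every liver vessel and not of the sinusoid alone. Mouse B26 gave KC replicate 2 and EC replicate 3, and the other 4 libraries came from 4 other mice.

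Liver sinusoids are capillaries whose endothelium has open pores and no continuous basement membrane. Their ECs remove soluble waste from the blood through scavenger receptors, while KCs sit in the vessel lumen, take up particles, bacteria and aged red cells, and recycle the iron. The 2 cell types lie side by side and exchange signals: ECs supply growth factors and Notch ligands to macrophages, and both respond to BMP9 and BMP10 through the receptor ALK1. A count here is reported as CPM, a count scaled to a common library total after TMM normalization, and a log2 fold change is always KCs minus ECs with its standard error. A gene was called a differentially expressed gene (DEG) at a Benjamini-Hochberg (BH) adjusted p below 0.05 in edgeR's quasi-likelihood test and a fold change above 2.

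The libraries held 60911527 to 87955779 counts in KCs and 71376375 to 84602768 in ECs, so that 3 counts corresponded to 0.032 to 0.053 CPM. Ranks of gene levels correlated at 0.971 to 0.979 among the KC libraries (Spearman's rho over 16160 genes, a description), at 0.980 to 0.981 among the EC libraries and at 0.716 to 0.758 between the cell types, where the highest values belonged to KC replicate 2, at 0.758 with each EC library. A single KC library and a single EC library, from different mice, had *Xist* counts, and the other 4 had none. The labelled cell types carried their markers, with endothelial genes at 0.106% of the EC level in KC replicate 1 (the median of 20 pan-endothelial genes) but at 1.83 and 1.13% in KC replicates 2 and 3. The 20 KC identity genes had medians of 0.116 to 0.131% of the KC level in the 3 EC libraries. Cell type was confounded with the sort gate and the count table, and these cannot be told apart.

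Of 16160 genes tested, 5759 were DEGs, which is 35.6% (Benjamini-Hochberg over all genes tested). Of these, 2878 genes were higher in KCs (17.8%) and 2881 higher in ECs (17.8%). Scaling by library size alone gave 2702 and 3028. Differences above 32-fold numbered 974 among the former and 933 among the latter. The 3 KC libraries and the 3 EC libraries did not overlap in 10070 genes (62.3% of those tested). As a yardstick within a cell type, the control macrophages of the *Smad4* experiment were tested against the KC controls used here: 1972 of 16618 genes passed the same thresholds (11.9%), and the SD of the log2 fold changes over genes was 1.21 there and 3.11 between KCs and ECs. The *Smad4* control libraries held 26 endothelial genes, chosen below by KC replicate 1, at medians of 10.4, 2.47 and 9.57% of the EC level. KC replicates 1 to 3 held them at 0.106, 1.76 and 1.11%. The part of endothelial RNA in the 1972 genes was not tested. Set against the same ECs, the macrophages of the *Smad4* experiment gave 7509 DEGs, 4038 of them higher in the macrophages and 3471 in ECs. Of the 5759 DEGs above, 4835 were shared with that comparison, and 6 genes were called there in the opposite direction.

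**Figure D1:**
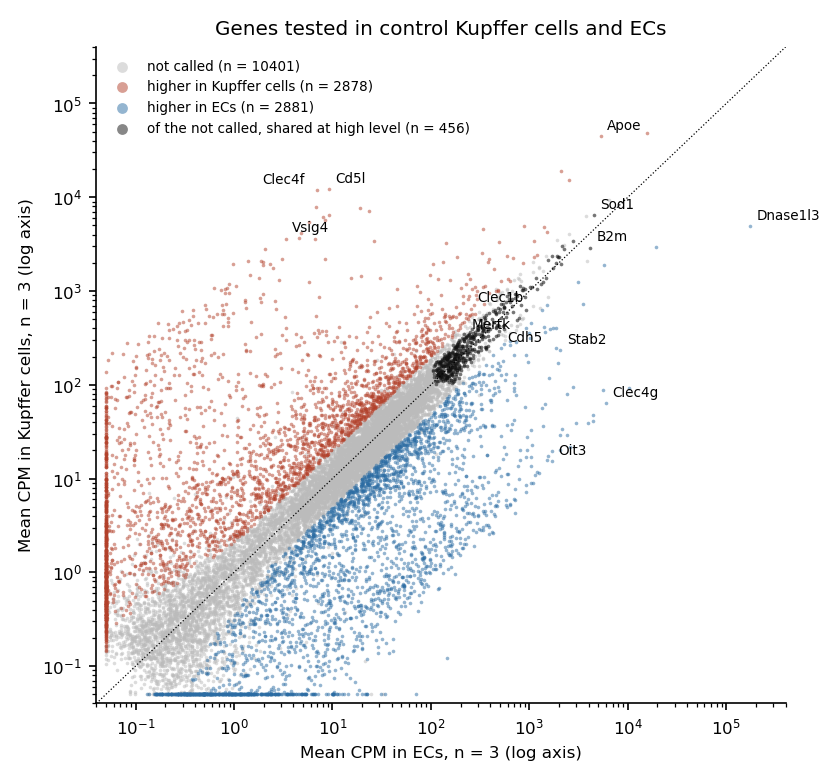
Mean level of each of the 16160 tested genes in ECs (x axis) and KCs (y axis), in CPM on log axes, over 3 libraries each, with means below 0.05 drawn at 0.05. Genes higher in KCs (2878) and in ECs (2881) lie on either side of the dotted line of equal level, and the 456 genes shared at high level lie along it.

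All 20 KC identity genes tested were higher in KCs, where 17.8% of all genes were. Every gene list here was chosen with earlier results of these data known. The 20 genes had a median log2 fold change of 9.84, against 0.00089 over all genes. *Clec4f*, which encodes a lectin restricted to KCs, stood at 11787, 12559 and 11057 CPM in KC replicates 1 to 3 and at 6.55, 7.05 and 7.11 CPM in EC replicates 1 to 3. *Cd5l*, a secreted scavenger protein of macrophages, stood at 12619.5, 12391 and 11679 CPM and 9.41, 9.54 and 8.91 CPM. For each gene the 3 libraries of a group lay close together and far from the other group (log2 fold change 10.74 ± 0.21 and 10.36 ± 0.20, edgeR BH-adjusted p = 3.8e-07 and 3.8e-07). *Vsig4*, the complement receptor that binds C3b-coated particles, had 3371, 3706 and 3800.5 CPM in KCs and 3.96, 3.43 and 2.61 CPM in ECs. *Timd4*, the phosphatidylserine receptor of embryonically derived KCs, had 709.8, 683 and 717 CPM and 0.646, 0.344 and 0.527 CPM. *Folr2* and *Marco* differed as widely, at log2 fold changes of 10.98 ± 0.80 and 10.75 ± 0.42. The smallest differences of the list were those of *Slc40a1*, the iron exporter ferroportin (3.93 ± 0.19; 2076, 2101 and 1867 CPM against 154, 135 and 108 CPM), and *Hmox1*, the heme-degrading enzyme (4.54 ± 0.17), both of which had over 40 CPM in every EC library. *Kcna2* was uneven among KCs, at 26, 156 and 201 CPM. In the pan-macrophage list, 18 of 19 tested genes were higher in KCs, against the same 17.8% of all genes. Among the 18 were *Cd68* (10.13 ± 0.25), *Lyz2* (10.18 ± 0.28) and *Cybb* (10.42 ± 0.35). *Ptprc*, *Adgre1* and *Fcgr1* encode proteins of the sort gate and are no finding. The exception was *Mertk*, which is described with the uptake receptors.

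**Figure D2:**
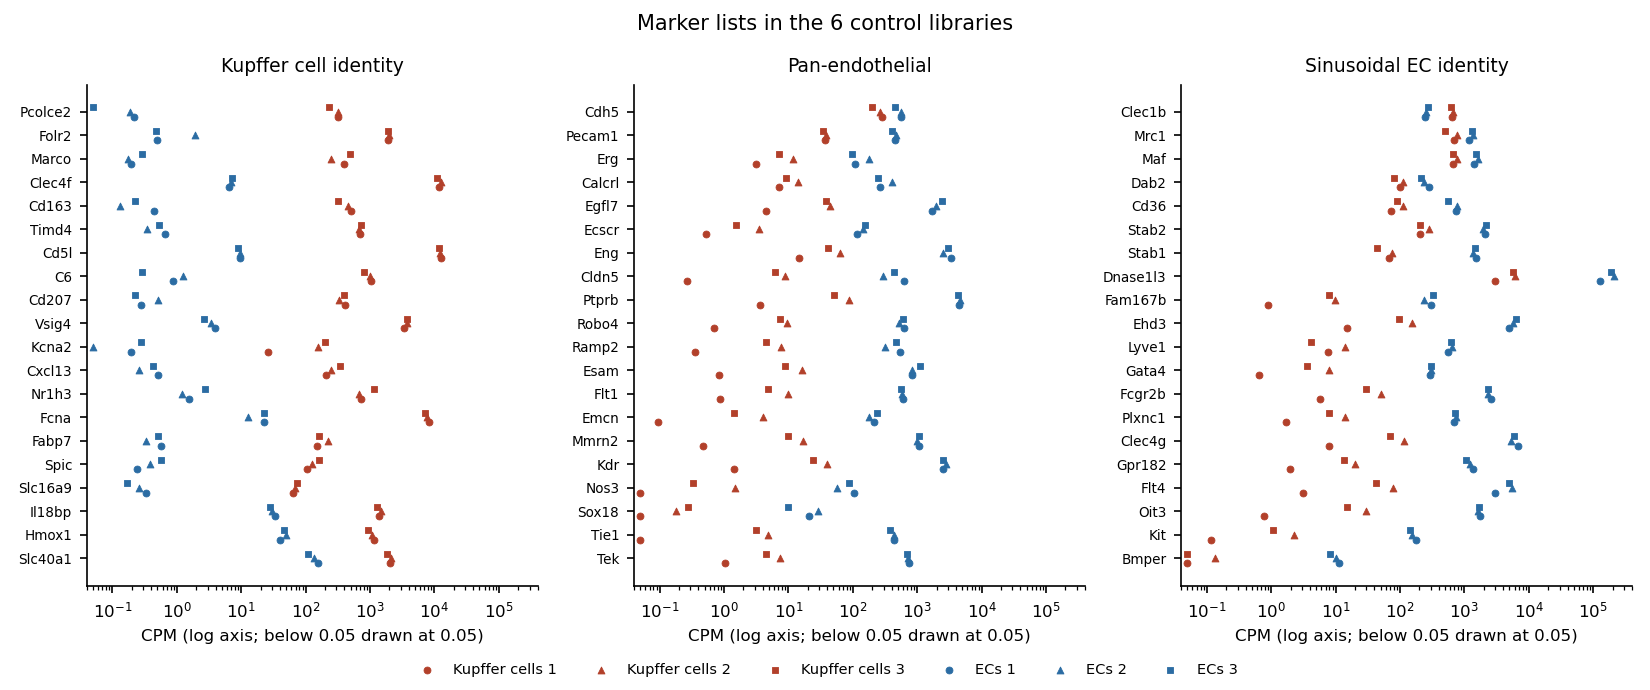
CPM on a log axis of KC identity, pan-endothelial and sinusoidal EC genes in each of the 6 libraries, red for KCs and blue for ECs, with the replicate given by the symbol and values below 0.05 drawn at 0.05. The 20 KC identity genes are separated in every library, while *Clec1b* lies higher in KCs and *Mrc1*, *Maf* and *Cdh5* differ by log2 fold changes near -1.

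*Dnase1l3*, a secreted DNase that degrades DNA in the blood, made up 126410.0, 209089 and 187336 CPM in the 3 EC libraries. It also stood at 2945, 6092 and 5671 CPM in KCs, lowest in replicate 1 (log2 fold change -5.15 ± 0.38, edgeR BH-adjusted p = 3.7e-05). *Clec4g* (LSECtin), a lectin of sinusoidal endothelium, had 6679.6, 5298 and 5961 CPM in ECs and 7.79, 116 and 68.8 CPM in KCs. *Stab2*, the hyaluronan-clearing scavenger receptor stabilin-2, had 2117, 1909.9 and 2173 CPM in ECs and 207, 285 and 206 CPM in KCs (log2 fold change -3.15 ± 0.19, edgeR BH-adjusted p = 1.4e-05). The groups did not overlap for any of the 3 genes, and KC replicate 1 was the lowest KC library for *Dnase1l3* and *Clec4g* but not for *Stab2*. Of 20 sinusoidal EC genes tested, 18 were higher in ECs, *Clec1b* was higher in KCs and *Mrc1* was not called. Of all genes tested, 17.8% were called in each direction. All 20 pan-endothelial genes were higher in ECs, with a median log2 fold change of -6.67, among them *Pecam1* (CD31), which defines the sort gate and is no finding. *Kdr* (VEGF receptor 2) had 2506, 2768 and 2476 CPM in ECs and 1.43, 40.4 and 24 CPM in KCs, and *Tek*, the angiopoietin receptor TIE2, 734, 723 and 688 CPM and 1.03, 7.4 and 4.49 CPM. Of 16 markers of continuous and large vessels tested, 12 were higher in ECs, against the same 17.8% of all genes. *Vwf* (von Willebrand factor) had 77.6, 75.3 and 70.7 CPM in ECs, *Cd34* 24.2, 32.5 and 18.4 CPM and *Plvap*, the diaphragm protein of closed fenestrae, 213, 101 and 174 CPM. *Selp* (P-selectin) had 21.6, 16.6 and 28.3 CPM in ECs and no count in the KC libraries, which puts it at least 421-fold higher in ECs when KCs are set to 3 counts in the shallowest library. *Vcam1* went the other way, with 384, 422 and 287 CPM in KCs and 110.5, 71.6 and 87.1 CPM in ECs (2.02 ± 0.22). Fewer cells of a vessel type and less RNA per cell cannot be told apart in such bulk samples.

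The promoters of 4 of these genes are shown because each marks its cell type at a high level, from 250 bases before to 50 bases after the gene's start (RefSeq, GRCm38.p6). They are *Clec4f* at chr6:83656067-83656366 (minus strand), *Cd5l* at chr3:87357631-87357930 (plus strand), *Stab2* at chr10:87007893-87008192 (minus strand) and *Clec4g* at chr8:3720602-3720901 (minus strand). Capitals mark a match to any of 7 motifs searched on both strands. The motif of PU.1 and its ETS relatives was GAGGAAGT, and that of ETS factors in general CCGGAAGT. GATA factors were represented by the letters AGATAA, and members of the SOX family by the letters ACAATG. For AP-1 the letters were TGACTCA, for the E-box of MITF and TFE factors CACGTGAC and for the interferon response GAAACTGA.
Clec4f: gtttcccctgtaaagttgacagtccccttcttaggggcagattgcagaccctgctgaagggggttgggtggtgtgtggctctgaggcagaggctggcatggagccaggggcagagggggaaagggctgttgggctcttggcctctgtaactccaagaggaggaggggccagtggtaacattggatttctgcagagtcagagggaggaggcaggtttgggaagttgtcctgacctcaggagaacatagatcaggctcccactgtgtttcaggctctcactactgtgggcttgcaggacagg
Cd5l: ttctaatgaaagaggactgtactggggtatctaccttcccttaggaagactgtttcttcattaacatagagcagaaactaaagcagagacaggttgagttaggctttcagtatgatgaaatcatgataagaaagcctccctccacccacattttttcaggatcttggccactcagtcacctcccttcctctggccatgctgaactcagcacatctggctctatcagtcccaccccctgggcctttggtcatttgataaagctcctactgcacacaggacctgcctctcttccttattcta
Stab2: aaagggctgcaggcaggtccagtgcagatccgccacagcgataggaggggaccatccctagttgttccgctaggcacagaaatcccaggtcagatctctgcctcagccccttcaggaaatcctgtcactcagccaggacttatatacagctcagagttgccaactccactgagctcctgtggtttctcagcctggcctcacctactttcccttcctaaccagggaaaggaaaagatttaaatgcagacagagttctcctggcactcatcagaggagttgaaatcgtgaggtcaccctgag
Clec4g: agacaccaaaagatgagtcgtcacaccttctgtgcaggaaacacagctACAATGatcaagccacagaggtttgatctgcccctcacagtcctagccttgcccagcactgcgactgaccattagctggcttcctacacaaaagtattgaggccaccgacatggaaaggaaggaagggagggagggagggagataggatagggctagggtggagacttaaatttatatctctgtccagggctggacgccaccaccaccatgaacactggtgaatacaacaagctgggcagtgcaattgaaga
The SOX letters in *Clec4g*, 202 bases before the start, were the only match in the 4 windows. Over 10596 promoters of tested genes, the PU.1 and ETS letters occurred in 3.39%, in 6.4% of the 2000 promoters of genes higher in KCs and in 2.71% of the 1956 promoters of genes higher in ECs. The general ETS letters occurred in 7.97% of all these promoters, in 4.85% of the former and in 3.37% of the latter. The GATA letters had shares of 6.87, 9.1 and 6.7%, the SOX letters 7.19, 8.15 and 7.52%, the AP-1 letters 3.67, 4.9 and 4.35%, the E-box letters 4.21, 3.25 and 3.17% and the interferon response letters 1.74, 2.35 and 1.18%, in the same order of all tested, higher in KCs and higher in ECs. The PU.1 and the general ETS letters share their last 6 bases, and no position can match both. None of the 18 KC identity promoters in the table held the PU.1 and ETS letters, against 2 of 12 pan-macrophage promoters, 1 of 11 pan-endothelial promoters and none of 14 sinusoidal EC promoters. The 3 windows are printed in the direction of the letters, which ran opposite to the gene in each. Read in the gene's direction and counted from its start, the match begins at base -195 in *C1qc* (letters at chr4:136893102-136893109), -2 in *Ctss* (chr3:95526784-95526791) and -53 in *Eng* (chr2:32646542-32646549). The letters as printed end at that base.
C1qc: gccaaaatGAGGAAGTgtctgccg
Ctss: tccacaatGAGGAAGTgaactttc
Eng: ggcgagtaGAGGAAGTgccacagg
A match of letters is a description and not a binding site.

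Of 39 genes of the pan-endothelial and sinusoidal lists with at least 10 CPM in ECs, 26 lay under 1% of the EC level in KC replicate 1, with a median of 0.106%, against medians of 1.76 and 1.11% in KC replicates 2 and 3. These 26 were chosen by their level in replicate 1, so their order there follows in part from the choice. Over all 39 genes, 30 were lowest in replicate 1 and 9 in replicate 3, and 37 were highest in replicate 2. The part of endothelial cells or RNA in KC replicates 2 and 3 in these values was not tested. With KC replicate 1 as the only macrophage library, 19 of the 20 pan-endothelial genes were called higher in ECs and 18 of the 20 sinusoidal genes. Another 9 genes were at 4% of the EC level or more in KC replicate 1 (*Clec1b*, *Mrc1*, *Cdh5*, *Maf*, *Dab2*, *Cd36*, *Stab2*, *Pecam1* and *Stab1*), a boundary set after the values were seen. These 9 were also chosen by replicate 1, and their levels in the 3 libraries carry that choice. The remaining 4 genes, *Erg*, *Calcrl*, *Dnase1l3* and *Lyve1*, lay between 1 and 4% in replicate 1. *Clec1b* (CLEC2, a receptor for podoplanin) was the extreme, with 653, 675 and 612 CPM in KCs and 245, 251 and 270.2 CPM in ECs (1.34 ± 0.13, edgeR BH-adjusted p = 0.00012). *Cdh5*, the VE-cadherin of endothelial junctions, stood at 279, 263 and 197 CPM in KCs and 558, 559.7 and 444 CPM in ECs (-1.08 ± 0.18), and fell short of the fold threshold without KC replicate 3 (-0.98). *Maf* encodes a transcription factor of both lineages and had 667, 772 and 665 CPM and 1385, 1603 and 1539.7 CPM. *Mrc1*, the mannose receptor, had 699.6, 762 and 493 CPM and 1171, 1358 and 1327 CPM, a log2 fold change of -0.98 ± 0.19 that did not reach the fold threshold but passed it without KC replicate 1 (-1.03), KC replicate 2 (-1.13), EC replicate 1 (-1.06) or EC replicate 3 (-1.005). *Stab1* stood at 67.7, 73.9 and 44.3 CPM in KCs against 1500.3, 1379 and 1484 CPM in ECs. Macrophages of the *Smad4* experiment held *Cdh5* at 40.3, 32.7 and 34.3% of the EC mean and *Clec1b* at 273, 441 and 411%, but their libraries also had the 26 low genes at medians of 10.4, 2.47 and 9.57% (scaled with the KC and EC libraries together).

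**Figure D3:**
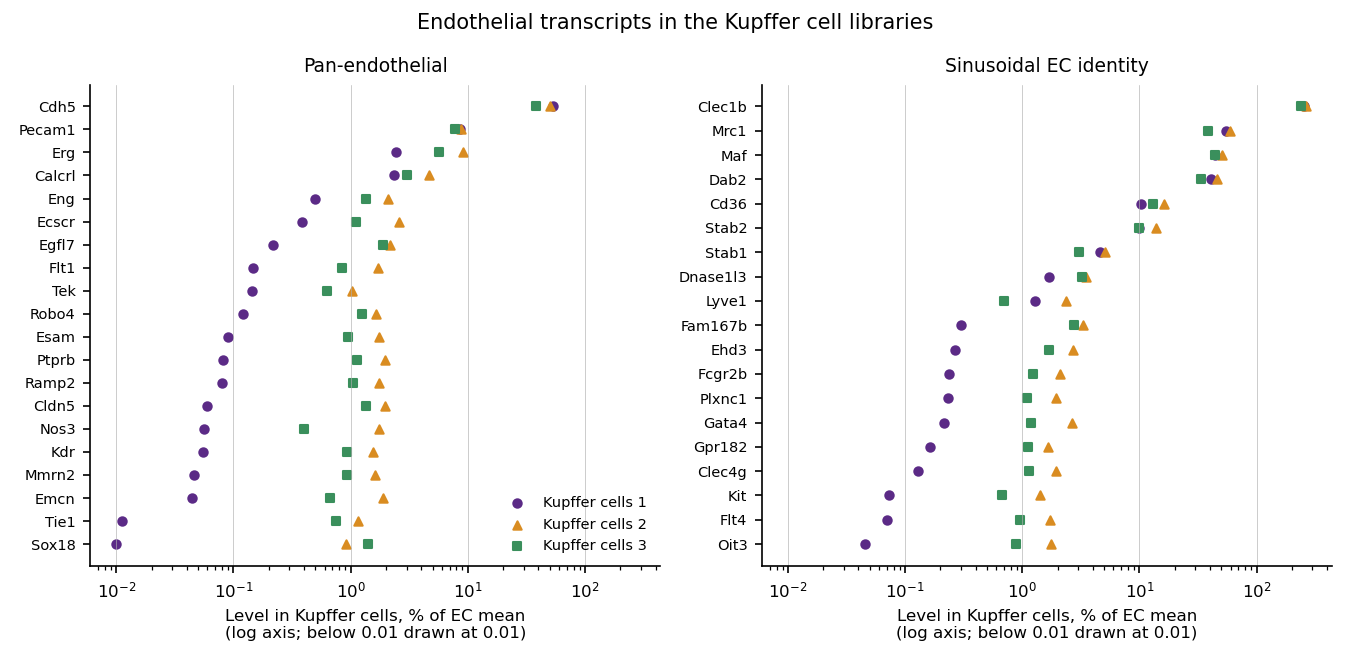
Level of pan-endothelial (left) and sinusoidal EC genes (right) in each KC library as a percentage of the EC mean, on a log axis, ordered by KC replicate 1, with values below 0.01 drawn at 0.01. The 26 low genes have medians of 0.106, 1.76 and 1.11% in replicates 1 to 3, and *Clec1b*, *Mrc1*, *Maf*, *Cdh5*, *Dab2*, *Cd36*, *Stab2*, *Stab1* and *Pecam1*, chosen by their level in replicate 1, lie at 3.05% or more in all 3.

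Lineage transcription factors divided the cell types. Of 22 myeloid factors tested, 17 were higher in KCs, none was higher in ECs and 5 were not called (17.8% of all genes were called in each direction), and of 32 endothelial factors 25 were higher in ECs, none in KCs and 7 were not called. *Spi1* encodes PU.1, the factor that sets myeloid fate, and had 72.5, 78.9 and 78.9 CPM in KCs and 0.258, 0 and 0 CPM in ECs. *Nr1h3* (LXRα), which KCs need for their identity, had 716, 669 and 1154 CPM and 1.56, 1.2 and 2.75 CPM, highest in KC replicate 3. *Spic*, a factor of iron-recycling macrophages, had 107, 124 and 159 CPM and 0.237, 0.387 and 0.563 CPM. *Irf5* (9.03 ± 0.34) and *Cebpa* (2.97 ± 0.22) were also higher in KCs. *Irf8*, needed by monocyte and dendritic lineages, was shared more broadly, at 394, 312 and 323 CPM in KCs and 54.6, 66.9 and 124 CPM in ECs (2.07 ± 0.32). *Runx1* had 19.5, 16.2 and 14.4 CPM in KCs and no count in ECs (at least 389-fold higher, by the floor of 3 counts).

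On the endothelial side, *Gata4*, which keeps sinusoidal endothelium from becoming continuous, had 295, 307 and 301 CPM in ECs and 0.643, 8.03 and 3.56 CPM in KCs (-6.20 ± 0.95). *Nr2f2* (COUP-TFII), a factor of venous identity, had 748, 858 and 767 CPM and 1.13, 15.7 and 13.1 CPM, and *Epas1* (HIF2α) 816, 873 and 744 CPM and 9.24, 35 and 16.4 CPM. The ETS factors differed in how far they were endothelial: *Ets1* (-4.04 ± 0.37), *Erg* (-4.13 ± 0.56) and *Elk3* (-5.07 ± 0.29) were higher in ECs, whereas *Fli1* was shared at high level, with 129, 116 and 125 CPM in KCs and 104, 128 and 145 CPM in ECs. *Sox7*, *Sox17* and *Sox18*, the SOXF factors of endothelium, were higher in ECs with log2 fold changes of -6.61, -6.50 and -7.09. *Klf2* and *Klf4*, induced by blood flow, were present in both, with *Klf2* at 142, 107 and 65.9 CPM in KCs and 184, 213 and 385 CPM in ECs and *Klf4* at 31.9, 26.8 and 14.9 and 70.9, 86.1 and 207 CPM. Both were called higher in ECs (-1.31 ± 0.37 and -2.31 ± 0.51), with edgeR BH-adjusted p = 0.025 and 0.01. The call of *Klf2* was lost without KC replicate 2 (-1.34, adjusted p = 0.066), KC replicate 3 (-1.10, adjusted p = 0.055) or EC replicate 3 (-0.97, adjusted p = 0.051). *Lmo2* (-0.48 ± 0.14) and *Hhex* (-0.85 ± 0.26) did not reach the fold threshold, and the hematopoietic and endothelial factor *Lyl1* was not called (1.34 ± 0.56) but was higher in KCs without EC replicate 1 (2.11, edgeR BH-adjusted p = 0.0076). Without KC replicate 1, or without EC replicate 3, *Hhex* passed the fold threshold (-1.02 and -1.13).

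In the BMP and TGF-beta pathway, of 36 genes tested 4 were higher in KCs, 15 were higher in ECs and 17 were not called, where 17.8% of all genes tested were called in each direction. Among receptors for BMP9 and BMP10, *Acvrl1* (ALK1), the type I receptor, was higher in KCs, at 176, 160.4 and 196 CPM against 54.8, 49.8 and 56 CPM in ECs (1.73 ± 0.13, edgeR BH-adjusted p = 4.1e-05). *Eng* (endoglin), the coreceptor that presents these ligands to ALK1, went the other way, at 14.8, 62.4 and 40.6 CPM in KCs and 3401, 2519.6 and 3017 CPM in ECs (-6.24 ± 0.60). The type II receptor *Bmpr2* was also higher in ECs, at 239, 316 and 256 CPM against 51, 61.4 and 45.1 CPM (-2.36 ± 0.18). KCs thus had more *Acvrl1* transcript, and ECs more *Eng* and *Bmpr2* transcript. Of the other receptor genes, *Acvr2b* had 458, 345 and 200 unscaled counts in KCs and 575, 318 and 260 in ECs. *Acvr2a* had 282, 212 and 69 unscaled counts in KCs and 705, 676 and 635 in ECs. *Acvr1* (ALK2) was higher in ECs (-2.50 ± 0.18) and *Bmpr1a* (ALK3) in KCs (17.4, 15.4 and 9.62 CPM against 0.829, 1.23 and 0.659 CPM). *Tgfbr1* was higher in KCs (1.95 ± 0.20), *Tgfbr3* (betaglycan) was higher in ECs (75.3, 87.3 and 58.2 CPM against 0, 0.677 and 0.491 CPM), and *Tgfbr2* did not reach the fold threshold (-0.78 ± 0.18).

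Of the signal transducers, *Smad1* and *Smad4* were not called. *Smad1* had 46.2, 42.5 and 36.1 CPM in KCs and 46.6, 46.1 and 44.4 CPM in ECs, with a log2 fold change of -0.14 ± 0.13 and a 95% interval of -0.44 to 0.17. *Smad4*, the common partner, stood at 48.7, 53.3 and 35.3 CPM and 88.4, 77.5 and 73.5 CPM (-0.80 ± 0.18). The inhibitory *Smad6* was higher in ECs, at 59.7, 66.9 and 51.5 CPM against 6.09, 6.31 and 7.97 CPM, as was *Smad7* (-1.59 ± 0.22). Of the ID genes, which ALK1 signalling induces, *Id3* was shared at high level, at 1145, 980.2 and 995 CPM in KCs and 1336, 1198 and 1049.8 CPM in ECs. *Id1* had 20.8, 14.2 and 9.83 CPM in KCs and 33.5, 19.9 and 20.3 CPM in ECs (-0.72 ± 0.32, not called, but -1.03 and called without KC replicate 1), *Id2* was not called either (0.63 ± 0.24), and *Id4* was higher in ECs (31.7, 53.9 and 48 CPM against 0, 1.28 and 0.263 CPM). The ligands *Bmp2* (325, 427 and 477 CPM in ECs, 1.77, 9.33 and 2.33 CPM in KCs) and *Bmp6* (54.5, 71 and 76.5 CPM and 0.117, 1.9 and 0.806 CPM), which instruct hepatocytes to make hepcidin, were higher in ECs. *Gdf2*, the BMP9 gene that stellate cells express, had 0, 2.36 and 1.16 CPM in KCs and 2.59, 1.55 and 0.911 CPM in ECs, and *Lrat*, a stellate cell marker, 1.94, 20 and 6.29 CPM and 21.6, 14.7 and 10.5 CPM, both lowest in KC replicate 1. *Lrat* was called higher in ECs without KC replicate 2 (-1.96, edgeR BH-adjusted p = 0.04). None of the 14 stellate cell genes tested was called.

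**Figure D4:**
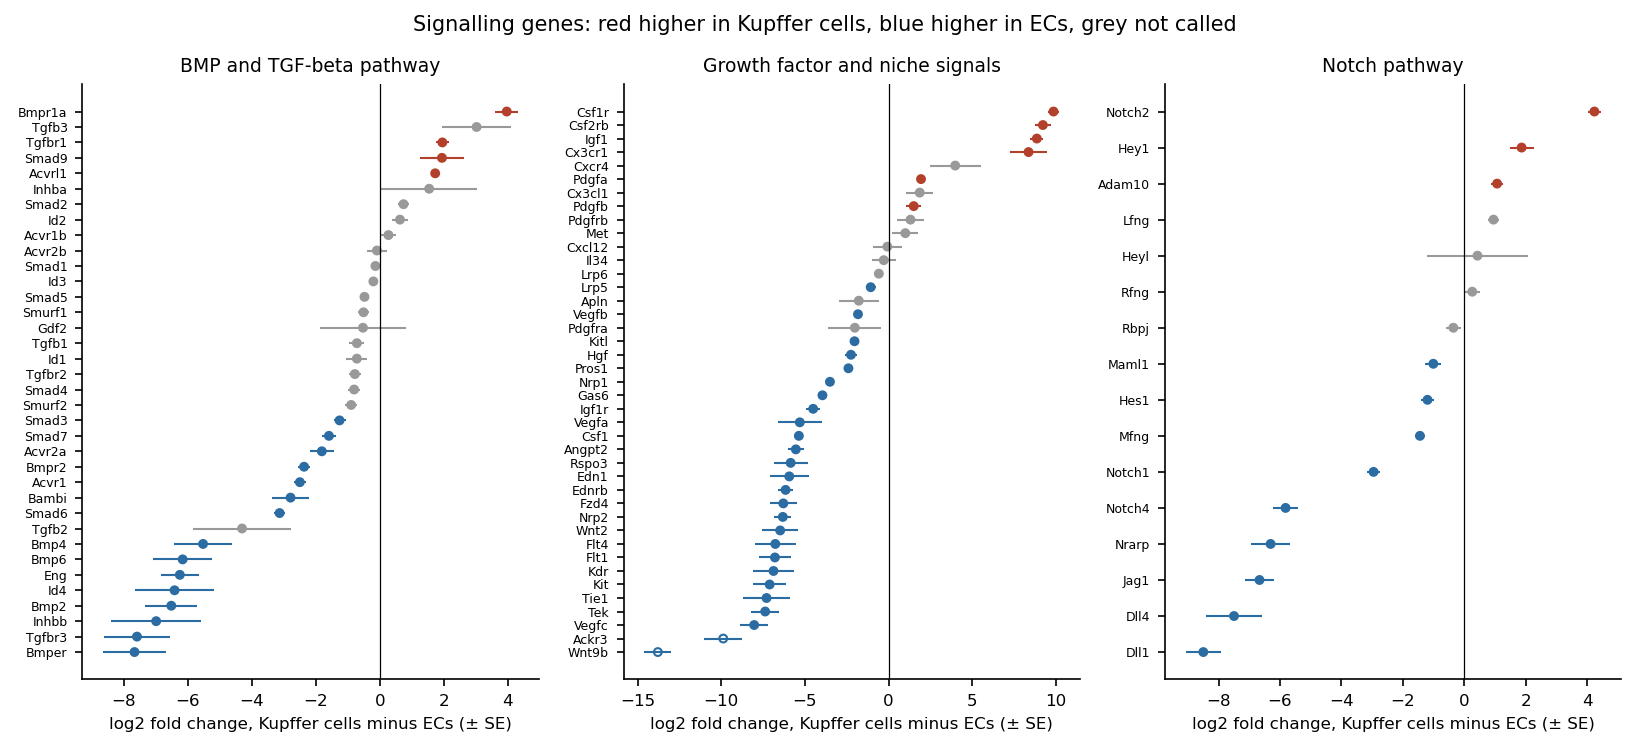
Log2 fold change (KCs minus ECs) ± SE for the tested genes of the BMP and TGF-beta pathway (36), of growth factor and niche signals (41) and of the Notch pathway (16), fitted over 3 libraries per cell type. Red genes are higher in KCs, blue genes higher in ECs and grey genes not called; open symbols mark genes with no count in KCs, whose fitted value depends on the prior count.

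Of 41 growth factor and niche genes tested, 26 were higher in ECs, 6 were higher in KCs and 9 were not called, where 17.8% of all genes were called in each direction. *Csf1*, the growth factor that macrophages depend on, had 139.8, 119 and 135 CPM in ECs and 2.97, 3.86 and 2.72 CPM in KCs (-5.36 ± 0.19), and its receptor *Csf1r* 7.45, 4.04 and 5.99 CPM and 5979.5, 5709 and 4651 CPM (9.87 ± 0.35). *Il34*, the other CSF1R ligand, stayed below 1 CPM in all 6 libraries. *Kitl* was higher in ECs (49.7, 65.8 and 48.2 CPM against 13.2, 13.9 and 12.8 CPM), and so was its receptor *Kit* (179.8, 156 and 141 CPM against 0.117, 2.26 and 1.07 CPM). *Gas6* (-3.95 ± 0.18) and *Pros1* (-2.40 ± 0.14), the bridging ligands of the TAM receptors, were higher in ECs, and *Axl*, a TAM receptor, was higher in KCs (1559, 1616 and 1203 CPM against 20, 16.4 and 22.6 CPM). *Tyro3* had 2.9, 1.78 and 1.94 CPM in ECs and no count in KCs (at least 41.9-fold higher in ECs, by the floor of 3 counts). *Igf1* was higher in KCs (712, 929.6 and 1144 CPM against 1.99, 2.64 and 1.33 CPM) and *Igf1r* in ECs (41.9, 54.7 and 34.9 CPM against 1.67, 2.99 and 1.09 CPM).

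Transcripts of the Wnt signals that set liver zonation were higher in ECs than in KCs, the only cell types compared here. *Wnt2* had 447, 336 and 599 CPM in ECs and 0.596, 9.5 and 5.38 CPM in KCs, and *Rspo3*, an enhancer of Wnt signalling, 101, 52.9 and 99.2 CPM and 0.175, 3.07 and 1.12 CPM. *Wnt9b* had 27.9, 12.6 and 27.5 CPM in ECs and no count in KCs (at least 431-fold higher, by the same floor). *Hgf*, the hepatocyte growth factor, was higher in ECs at a lower level, 13.4, 16.4 and 24.1 CPM against 4.05, 5.19 and 2.1 CPM. Receptors of VEGF were high in ECs, with *Flt4* at 3026, 5432 and 4956 CPM and *Nrp1* at 1687, 2138 and 1968 CPM; *Nrp1* was also present in KCs, at 155, 188 and 167 CPM, with KC replicate 1 close to the others.

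In the Notch pathway, 9 of 16 tested genes were higher in ECs and 3 in KCs, against 17.8% of all tested genes in each direction, and 4 were not called. The ligands *Dll4* (175, 237 and 112 CPM in ECs, 0.199, 1.91 and 0.771 CPM in KCs), *Jag1* (83.9, 102 and 71.7 CPM and 0.667, 1.39 and 0.438 CPM) and *Dll1* (21.9, 15.6 and 15.9 CPM and 0.0468, 0.0846 and 0 CPM) were higher in ECs than in KCs. Receptors were split: *Notch1* (-2.96 ± 0.21) and *Notch4* (-5.82 ± 0.39) were higher in ECs, while *Notch2* was higher in KCs, at 319, 292 and 359 CPM against 15.1, 21.4 and 15.3 CPM (4.23 ± 0.20). Of the target genes, *Nrarp*, a feedback inhibitor of Notch signalling, had 19.1, 41.7 and 29.5 CPM in ECs and 0.175, 0.701 and 0.245 CPM in KCs (-6.31 ± 0.62). *Hes1* was also higher in ECs (-1.20 ± 0.23) and *Hey1* in KCs (1.86 ± 0.39), both under 20 CPM. *Rbpj*, the DNA-binding partner of Notch, was not called (-0.36 ± 0.24).

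Of 38 uptake receptors tested, 18 were higher in KCs, 13 were higher in ECs and 7 were not called, set against 17.8% of all genes in each direction. KCs had *Cd163*, the hemoglobin receptor (501, 457 and 323 CPM against 0.441, 0.129 and 0.228 CPM in ECs), *Marco* (401, 246 and 490.4 CPM against 0.194, 0.172 and 0.288 CPM) and *Lrp1* (869, 803 and 689 CPM against 4.18, 2.78 and 0.791 CPM). ECs had *Lyve1*, a hyaluronan receptor (548, 645 and 609.9 CPM against 7.66, 14.2 and 4.21 CPM in KCs), and *Scarf1* (112, 121 and 139.9 CPM against 37.1, 31.2 and 38.2 CPM). Among Fc receptors, *Fcgr4* was higher in KCs (10.66 ± 0.44), as was *Fcgr3* (6.33 ± 1.13), whose EC libraries were uneven at 3.84, 15.5 and 0.911 CPM, and the inhibitory *Fcgr2b* was higher in ECs (2589, 2357 and 2321 CPM against 5.73, 51.4 and 30 CPM). *Fcgrt*, the neonatal Fc receptor, had 491, 534 and 535 CPM in KCs and 790.0, 846 and 922 CPM in ECs and did not reach the fold threshold (-0.71 ± 0.13). *Msr1*, the class A scavenger receptor often used as a macrophage marker, had 286, 248 and 236 CPM in KCs and 156, 250.1 and 126 CPM in ECs (0.53 ± 0.25, not called). *Mertk*, an efferocytosis receptor, was not called either, at 391, 326 and 283 CPM and 176, 276 and 224 CPM (0.57 ± 0.20, edgeR BH-adjusted p = 0.053), although the groups did not overlap, and *Scarb2* was shared at high level.

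In the complement list, 13 of 24 tested genes were higher in KCs and 5 in ECs, against 17.8% of all genes each way. *C1qa*, *C1qb* and *C1qc*, the chains of C1q, had log2 fold changes of 9.09 ± 0.25, 8.26 ± 0.21 and 9.40 ± 0.23, and *C6*, a component of the membrane attack complex, 10.21 ± 0.64. *Cfp* (properdin), which stabilises the C3 convertase, stood at 3450.2, 3587 and 4102 CPM in KCs and 4.82, 2.87 and 6.05 CPM in ECs. The 5 genes higher in ECs were *Cd55* and *Cd59a*, which protect cells from complement (-4.00 ± 0.15 and -5.26 ± 0.36), *C5ar2*, *Masp1* and *Cd93*.

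Of 23 Toll-like receptors and sensors tested, 16 were higher in KCs and none in ECs, where 17.8% of all genes lay on each side. *Tlr4*, the lipopolysaccharide receptor, had 98.1, 74.9 and 55.3 CPM in KCs and 26.8, 24.8 and 23.7 CPM in ECs (1.60 ± 0.21), and *Tlr2* 76, 65.7 and 62.9 and 29.7, 26.6 and 23.4 CPM, so that ECs held both at a lower level. Neither was called when the macrophages of the *Smad4* experiment took the place of these KCs, with log2 fold changes of 0.18 and 0.36. *Cd14*, which hands lipopolysaccharide to TLR4, was much more unequal (243, 502 and 227 CPM against 1.43, 2.05 and 1.49 CPM, 7.62 ± 0.44), while *Ly96* (MD-2) was not called (45.4, 50.4 and 41.2 CPM and 55.5, 44.6 and 50 CPM). *Tlr3*, the receptor for double-stranded RNA, had 12.1, 11.7 and 7.53 CPM in KCs and 18, 18.3 and 17.6 CPM in ECs (-0.78 ± 0.21, below the fold threshold). *Tlr1* and *Nlrp3* had no count in ECs and 29.2, 19.9 and 29.1 and 16.1, 18.5 and 15.9 CPM in KCs. In the immunoreceptor list, 20 of 21 were higher in KCs, with *Syk* at 272, 259 and 213 CPM against 0.463, 0.272 and 0.204 CPM and *Tyrobp* (DAP12) at 1588, 1826 and 1827 CPM against 1.66, 2.45 and 3.33 CPM. *Fcer1g*, *Lyn* and *Sirpa* differed less (3.96 ± 0.17, 1.90 ± 0.15 and 1.95 ± 0.16) and had over 60 CPM in every EC library.

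Of 21 antigen presentation genes tested, 15 were higher in KCs and none in ECs, against 17.8% of all genes in each direction. The class II genes *H2-Ab1* (5268, 6125 and 7874 CPM against 9.21, 8.89 and 9.27 CPM), *H2-Aa* (9.47 ± 0.33), *H2-Eb1* (8.85 ± 0.27) and *Ciita*, their master regulator (26.3, 31.2 and 31 CPM against 0, 0.115 and 0.192 CPM), were higher in KCs, as was the costimulator *Cd86* (327, 324 and 348 CPM against 0.151, 0.086 and 0.228 CPM). All of the class II genes named were highest or next to highest in KC replicate 3. Of the class I genes, *Tap1*, a chain of the peptide transporter, was higher in KCs, at 195, 165 and 231 CPM against 98, 77.2 and 75.8 CPM (1.23 ± 0.18), a call lost with the macrophages of the *Smad4* experiment in place of KCs (0.41, edgeR BH-adjusted p = 0.0612). *Tap2*, its partner chain, was not called (-0.08 ± 0.18). Also not called were *H2-K1*, at 3277, 3246 and 3649 CPM in KCs and 3059, 2311 and 2958 CPM in ECs, and *B2m*, the class I light chain, at 2403, 3289 and 3022 CPM and 3769, 4334 and 4316 CPM. *H2-D1* did not reach the fold threshold (0.75 ± 0.16), nor did *Nlrc5*, the class I regulator (0.48 ± 0.16). Reads of *H2-K1* and *H2-D1* can be shared with near-identical class I genes, which leaves their single levels uncertain.

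Iron, lysosome and lipid genes were more often called higher in KCs than in ECs, and uptake or digestion was not measured. Of 21 iron and heme genes tested, 17 were higher in KCs and *Heph* (hephaestin) was higher in ECs (24.1, 28.9 and 23.3 CPM against 0, 0.121 and 0.666 CPM). *Ftl1*, the ferritin light chain, had 13327, 15982 and 16457 CPM in KCs and 2599, 2434 and 2553 CPM in ECs, and *Slc11a1* (NRAMP1), the metal transporter of the phagosome, 599.7, 585 and 715 CPM and 0.538, 0.444 and 0.18 CPM. *Tfrc*, the transferrin receptor, was higher in KCs (23.6, 17.2 and 28.8 CPM against 0.398, 0.588 and 0.408 CPM), and *Slc11a2* (DMT1) was not called (0.42 ± 0.17). In the lysosome list 21 of 28 were higher in KCs, where 17.8% of all genes were. *Ctss* (9.74 ± 0.28) and *Ctsc* (10.54 ± 0.24) separated the cell types, *Ctsb* was high in both but higher in KCs (17228, 18747 and 20507 CPM against 1691, 2139 and 2413 CPM), and *Ctsl* was higher in ECs (1461, 1323 and 1569 CPM against 378, 423 and 292 CPM, -1.99 ± 0.18). The membrane protein *Lamp1* did not reach the fold threshold (0.78 ± 0.18), and *Lamp2* was shared at high level.

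Of 23 lipid genes tested, 13 were higher in KCs and 5 in ECs; of all genes tested, 17.8% were called in each direction. *Apoe* was the most abundant KC transcript per kb of exon among non-mitochondrial genes with a known exon length. It stood at 40199, 46354 and 47118 CPM in KCs and 6981, 1181 and 7777 CPM in ECs, where replicate 2 was far below the other EC libraries (3.07 ± 0.69, edgeR BH-adjusted p = 0.011). *Lpl* (lipoprotein lipase) had 1296, 959.5 and 1105 CPM in KCs and 0.839, 1.15 and 1.13 CPM in ECs, and *Gpihbp1*, the endothelial protein that anchors that enzyme to the vessel wall, 3988, 3418 and 4369 CPM in ECs and 2.65, 67.6 and 47.9 CPM in KCs. The fatty acid binding proteins were divided as well, with *Fabp7* in KCs (148, 224 and 161 CPM against 0.56, 0.33 and 0.503 CPM) and *Fabp4* (153, 123 and 154 CPM against 0.339, 3.34 and 1.45 CPM) and *Fabp5* (298, 227 and 313 CPM against 6.35, 11.6 and 6.99 CPM) in ECs. *Cd36*, the fatty acid transporter, was higher in ECs (-2.92 ± 0.23). *Abcg1*, which exports cholesterol, was present in both and higher in KCs (1.71 ± 0.22).

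Of 22 junction, caveola and fenestra genes tested, 18 were higher in ECs, with *Cldn5* (623, 297 and 429.8 CPM against 0.269, 8.76 and 6.13 CPM), *Esam* (-6.75 ± 1.13) and *Cav1* (38.2, 33.9 and 34.7 CPM against 0.363, 1.1 and 0.491 CPM). *Ehd4* was higher in KCs (1.86 ± 0.15). Of 25 basement membrane and matrix genes, read against the share of all genes called in each direction (17.8%), 13 were higher in ECs, such as *Col4a1* (399, 336 and 348 CPM against 0.526, 7.52 and 4.19 CPM), *Sparc* (1999.7, 2153 and 2279.9 CPM against 5.19, 56.7 and 39.5 CPM) and *Timp3* (-7.03 ± 1.24), and 7 were higher in KCs, such as *Timp2* (188, 189.7 and 179 CPM against 16.3, 17.7 and 12.9 CPM), *Mmp9* (39.4, 54.9 and 25.5 CPM against 0, 0 and 0.0719 CPM) and *Pcolce2*. In the coagulation list, 9 of 22 were higher in ECs, 5 in KCs and 8 were not called, beside the same 17.8%. *F8*, factor VIII, for which liver endothelium is the known source, had 569.9, 751 and 772 CPM in ECs and 0.234, 11.8 and 6.03 CPM in KCs. *Thbd* (thrombomodulin) was uneven, at 792, 712 and 1262 CPM in ECs and 229.9, 331 and 57.4 CPM in KCs (-2.16 ± 0.64, edgeR BH-adjusted p = 0.034), and its call was lost without any single EC library (-1.92 to -2.32). Of the 5 genes higher in KCs, *F5*, *F10* and *Proc* are made by hepatocytes and had at most 7.13 CPM in any KC library. The call of *F5* was lost without KC replicate 2 or 3 and without EC replicate 1 or 3 (3.33 to 4.29).

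Cytoskeletal and signalling paralogs were compared in pairs of a blood-cell and a broadly expressed form, chosen with earlier results of these data known. Of 17 pairs, 10 were called in opposite directions, 6 were called higher in KCs for the blood-cell form alone and 1 for neither. Per kb of exon, *Nckap1l* had 37.1 CPM in KCs and 0.033 in ECs, and its broad partner *Nckap1* 0.476 and 31.1, both of them subunits of the WAVE complex that drives actin branching. *Fermt3* (kindlin-3), an integrin activator, had 60.6 CPM per kb in KCs and 0.739 in ECs, and *Fermt2* 0.912 and 39.7. *Rac2* followed KCs, at 260.7 CPM per kb against 0.416 in ECs, but *Rac1* was shared at high level (132.7 and 150.9). In the integrin and adhesion list, 10 of 22 tested genes were higher in KCs and 8 in ECs, against 17.8% of all genes for each cell type. *Itgal* (10.56 ± 0.46) and *Itgb2* (10.47 ± 0.39), the chains of LFA-1, were higher in KCs, and *Itga1* (-6.02 ± 1.22) and *Itga5* (-2.17 ± 0.18) in ECs. The broadly expressed vitronectin receptor chains *Itgb5* (355, 385 and 309.8 CPM against 2.25, 1.68 and 1.7 CPM) and *Itgav* (77.2, 73.6 and 52.6 CPM against 9.69, 13.3 and 7.17 CPM) were also higher in KCs (7.54 ± 0.22 and 2.75 ± 0.27). *Itga9*, *Cd47*, *Icam1* and *Itgb1* were not called.

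In the chemokine list, 17 of 30 tested genes were higher in KCs and 5 in ECs. *Ccl6* had 1631, 2122 and 1870.0 CPM in KCs and 1.74, 2.19 and 1.99 CPM in ECs, *Ccl24* 245, 305 and 270.3 CPM and 0.0646, 0 and 0.252 CPM, and *Cxcl13*, the B cell attractant, 208, 248 and 345 CPM and 0.506, 0.258 and 0.42 CPM. Of the 5 genes higher in ECs, 4 were atypical receptors that bind chemokines without signalling to migration, *Ackr1*, *Ackr2*, *Ackr3* and *Ackr4*, for example *Ackr2* at 68.2, 52.9 and 58.3 CPM against 0, 1.05 and 0.578 CPM. The other was *Cxcl9* (-1.40 ± 0.15). *Cxcl16*, a chemokine that also acts as a scavenger receptor, was shared at high level, at 541, 651 and 579 CPM in KCs and 504, 571 and 549 CPM in ECs. In the interferon response list, 9 of 20 were higher in KCs, 2 in ECs and 9 were not called, with 17.8% of all genes called each way. *Irf7* had 1476, 1674 and 2626 CPM in KCs and 107, 103 and 102 CPM in ECs (4.21 ± 0.26), whereas *Rsad2* had 136, 132 and 130.5 CPM and 96.2, 148 and 135 CPM (0.07 ± 0.17, with a 95% interval of -0.33 to 0.48).

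**Figure D5:**
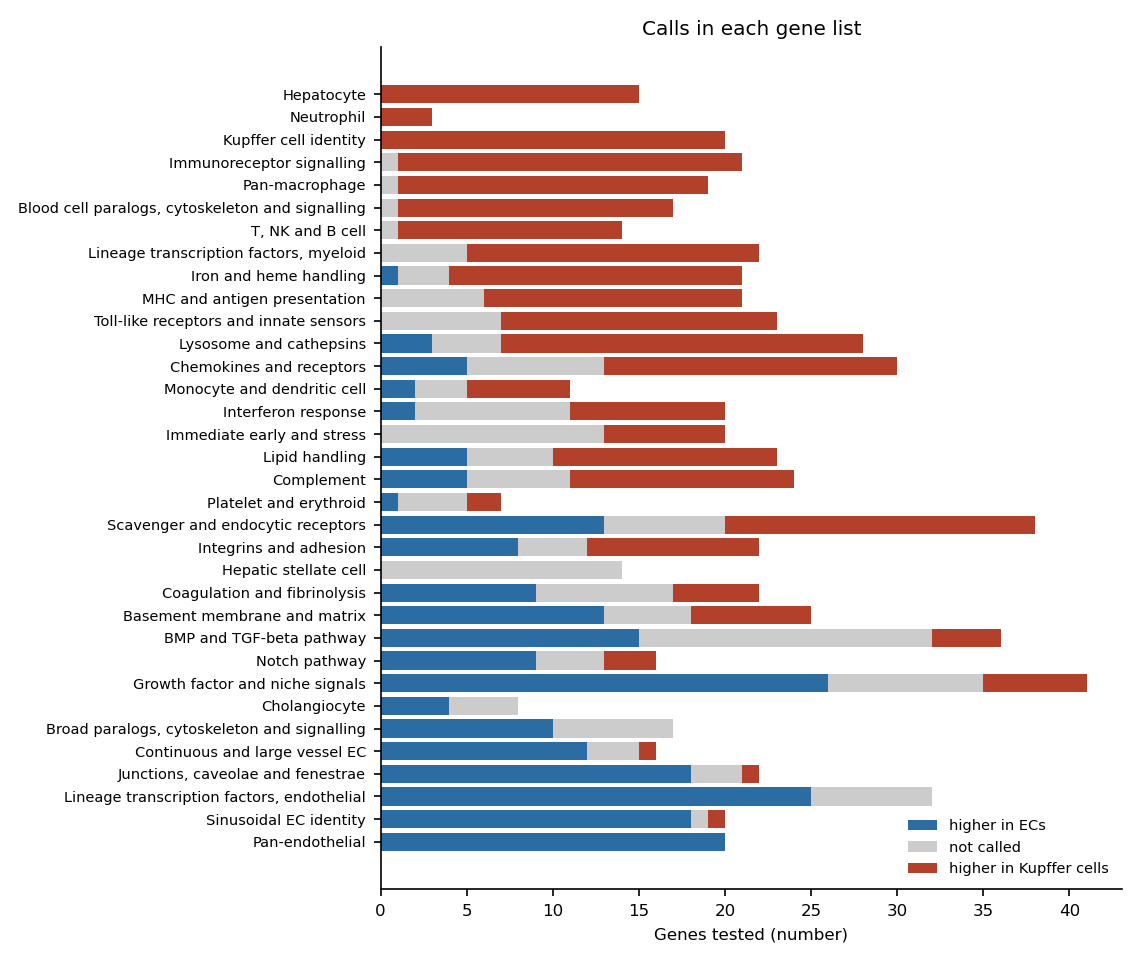
Number of tested genes in each of 34 gene lists that were higher in ECs (blue), not called (grey) or higher in KCs (red), ordered by the balance of the calls. Pan-endothelial genes are all blue and KC identity genes all red, while the scavenger receptor list holds 18 red and 13 blue genes and the stellate cell list holds none of either.

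The genes that separated the cell types most, list members included, were taken by a fixed rule, the largest log2 fold changes among DEGs with at least 100 CPM in each library of the higher group and no overlap. On the KC side these were *Lpcat2*, a lysophospholipid acyltransferase, *P2ry13*, an ADP receptor, *Nfam1*, *Gm15922*, *Cd300a*, *Siglece*, *Ccl24*, *Lilra5*, *Pcolce2* and *Cd86*. *Lpcat2* (chr8:92855339-92919279, GENCODE vM21 on GRCm38) had 188, 212 and 261 CPM in KCs and 0, 0.1 and 0.0719 CPM in ECs, and *P2ry13* (chr3:59207892-59210882) 199, 172 and 185 CPM and 0.0861, 0.0717 and 0 CPM. The EC values of these 10 genes were at most 0.387 CPM. *Gm15922*, *Lilra5*, *Siglece* and *Cd300a* belong to multigene families of receptors, whose reads can be shared among near-identical copies. On the EC side the rule gave *Schip1*, *Dll4*, *Lama4*, *Tek*, *Adam23*, *Tie1*, *Jam2*, *Podxl*, *Ephb4* and *Kit*. *Adam23* lost its call without KC replicate 3 (-7.34, edgeR BH-adjusted p = 0.058). *Schip1* (chr3:68064802-68626481) had 146, 137 and 154 CPM in ECs and 0, 0 and 0.368 CPM in KCs. *Podxl* (podocalyxin, chr6:31519488-31563981), a sialomucin of the endothelial surface, had 315, 274 and 241 CPM and 0.187, 4.12 and 1.44 CPM. *Ephb4*, the receptor of venous endothelium, had 159.7, 156 and 136 CPM and 0.0468, 2.08 and 1.14 CPM. In all 10 except *Schip1*, KC replicate 2 was the highest KC library.

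A total of 724 genes had at least 100 CPM in every one of the 6 libraries. Of these, 456 met the rule for sharing, a 95% interval of the log2 fold change within -1 and 1, which is 2.82% of the genes tested, and 440 of them are annotated as protein-coding. Another 96 of the 724 were higher in KCs and 49 were higher in ECs. Ranked by the lower of the group means per kb of exon, the first was *B2m* (chr2:122147686-122153083), at 3377 CPM per kb in KCs and 4813 in ECs. *Ifitm3*, an interferon-induced membrane protein that blocks virus entry, had 1963, 2113 and 2291 CPM in KCs and 1684, 1413 and 1495 CPM in ECs. *Ubb* (polyubiquitin B) had 2566, 2869 and 2980.2 CPM and 1725, 2524 and 2559 CPM, and *Sod1*, the copper-zinc superoxide dismutase, 5346, 6258 and 7695 CPM and 3878, 5178 and 4557 CPM. *H2-K1*, *Slc39a1*, a zinc importer (1792, 1868 and 2149 CPM and 1796, 2750.5 and 1769 CPM), and *Twf1* (twinfilin 1, 1797, 1803 and 2427 CPM and 1490.0, 2306 and 1829.8 CPM) were also among the first 15. The other members of the first 15 were the mitochondrial genes *mt-Atp6*, *mt-Nd4*, *mt-Nd1*, *mt-Cytb*, *mt-Co2* and *mt-Nd2* and their nuclear copies *Gm10925* and *Gm28661*. *mt-Atp6* and *Gm10925* had nearly equal values, 1680.2, 3360.3 and 1907 CPM and 1661, 3347 and 1899.8 CPM in KCs, so that their reads cannot be assigned to the one or the other. Further down the ranking, *Cd81*, a tetraspanin of the cell surface, *Canx* (calnexin), *Tubb5* and 9 ribosomal protein genes among the first 60 were shared.

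Sharing extended to genes with a known role in the sinusoid. *Id3*, the ALK1 target, ranked next after *Cd81*, at 580.7 CPM per kb in KCs and 667 in ECs (log2 fold change -0.20 ± 0.15, with a 95% interval of -0.56 to 0.16). *Fli1*, *Cr1l*, *Cxcl16*, *Scarb2*, *Cd47*, *Itga9*, *Irf9*, *Stat6*, *Nfe2l2*, *Lamp2*, *Tapbp*, *Ctnnd1* and *Dusp1* met the same rule. *Nfe2l2* (NRF2), a regulator of the response to oxidants, had 369, 477 and 311 CPM in KCs and 281, 314 and 428 CPM in ECs. *Itga9*, an integrin chain, had 311, 359.7 and 227 CPM and 380.4, 452 and 344 CPM, and *Cd47*, the signal that restrains phagocytosis, 411, 440.1 and 463 CPM and 497, 613 and 535 CPM. The spread within KCs was wide for *Dusp1* (401, 339 and 139 CPM), a gene induced by tissue dissociation, and its interval of -0.88 to 0.89 lay just within the limits.

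Markers of other liver cells were checked in the same libraries. All 15 hepatocyte genes tested were higher in KCs, with summed levels of 3475, 4670.4 and 4748 CPM in KC replicates 1 to 3 and 149, 109 and 134 CPM in ECs. Most of that sum was *Trf* (transferrin), at 3101, 3611 and 3589 CPM in KCs and even among them. *Alb* (albumin) was lower and uneven, at 148, 399 and 549 CPM in KCs and 66.7, 27.9 and 38.3 CPM in ECs, lowest in KC replicate 1. With that replicate as the only macrophage library, 12 of the 15 hepatocyte genes were called higher in KCs. The part of hepatocyte RNA in genes that hepatocytes and KCs both express, such as *Apoe*, *Cp* and *Hpx*, was not tested. T, NK and B cell genes summed to 126, 92 and 127 CPM in KCs and 1.74, 1.56 and 1.94 CPM in ECs, of which *Cd79b* made up 74.1, 53.5 and 95.5 CPM, while *Cd3g* and *Trac* had no count in ECs and 3.27, 0.798 and 0.508 and 2.95, 0.907 and 0.35 CPM in KCs. All 3 neutrophil genes tested were higher in KCs. *Csf3r*, the G-CSF receptor, made up most of their sum, at 51.9, 41.5 and 44.8 CPM in KCs and 0.043, 0 and 0 CPM in ECs, while *S100a8* and *S100a9* stayed below 3 CPM in each KC library and had no count in ECs. Cholangiocyte genes were low, with 4 of 8 tested higher in ECs (17.8% of all genes), among them *Spp1* (12, 31.8 and 23.7 CPM, highest in EC replicate 2), whose call was lost without KC replicate 3, EC replicate 2 or EC replicate 3 (-3.88 to -4.28). Of 20 immediate early and stress genes tested, 7 were higher in KCs and none in ECs, where 17.8% of all genes were higher in each. *Hspa1a* was uneven among the KC libraries, at 114, 34.7 and 2.93 CPM, and *Egr1* among the EC libraries, at 11.4, 76.7 and 7.74 CPM, and neither was called. Without KC replicate 3, *Hspa1a* was called higher in KCs (2.51).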

How the data were processed

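RNA-seq was measured in sorted control KCs and ECs, 3 libraries each. Reads had been aligned and counted per gene by the authors, whose notes name FastQC, HISAT2, featureCounts and DESeq2 with builds mm10 and GRCm38; their versions are not given in the sources used here. The library kit differs between the labels and the methods. The deposited values are raw counts per gene, without normalization. The 2 count tables were joined on the 48337 symbols found once in both, leaving out 483 of 48820 entries with repeated symbols, and 0 columns could not be mapped to a sample. Genes were filtered with filterByExpr, scaled by TMM and tested in edgeR 4.0.16 (R 4.3.3; glmQLFit with robust set, glmQLFTest) with Benjamini-Hochberg adjustment over all 16160 genes. DEGs had an adjusted p under 0.05 together with more than a 2-fold difference either way. In counts simulated with known changes, fold changes were centred on the true size, but many changed genes with high dispersion or low counts were missed; recovery fell short of the pass mark set beforehand, which was lowered after that result was seen. Total counts per library were 60911527 to 87955779, and floors of 3 counts cover counting error only. Levels per kb use GENCODE vM21 exon lengths, known for 15608 tested genes. The gene lists and members were chosen with earlier results of these data known. Named genes are list members, the 10 largest DEGs each way, the first 15 shared genes and genes the study names. *Canx*, *Tubb5* and *Cd81* were chosen after their values were seen. The column names give a separate mouse for each library of a group, and equal replicate numbers do not mark the same mouse. Alternatives covered scaling, tool (DESeq2 1.42.0), filters, thresholds, samples and single left-out libraries. Some items are not reported here.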

Additional observations from a re-analysis of the deposited data

How the results depend on the processing

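Between KCs and ECs, the count of DEGs ranged from 5506 to 5800 when each library was left out in turn (2686 to 2824 higher in KCs and 2682 to 2983 higher in ECs), and 4739 of the 5759 DEGs were called in every one of these fits. Requiring at least 10 counts in every library left 1915 genes higher in KCs, 2024 higher in ECs and 3939 in all, a filter that removes genes absent from the other cell type. DESeq2 called 6406 genes and edgeR's glmTreat 4359. With KC replicate 1 as the only macrophage library, an alternative chosen after seeing the data, 4952 genes were called, of which 4560 were among the main DEGs; its spread is assumed to be that of the ECs. With the replicate number as a block, 4971 genes were called (2480 and 2491), and the block changed the calls of *Klf2*, *Klf4*, *Thbd*, *F5*, *Lyl1* and *Mrc1*. Deviations from the group means correlated at 0.185, 0.078 and 0.220 for libraries with the same number, each the highest for its number. They correlated at -0.108 for the 2 libraries of mouse B26. Equal numbers do not mark a pair in the design, and a link between such libraries was not tested. The limma-voom fit with the mouse as a random block could not be fitted, with 1 mouse in both groups. The genes shared at high level numbered 1119 at a minimum of 50 CPM, 151 at 200 CPM and 419 to 463 without single libraries, and 361 were shared in each of the latter fits. Between the control macrophage sets, 1525 to 2246 genes were called without single libraries and 1523 with the replicate block. Signs changed with the *Smad4* control macrophages for *Gdf2* (0.32), *Hspa1a* (-2.46, called), *Il34* (1.58, called), *Rsad2* (-0.84) and *Slc11a2* (-0.0080). Signs also changed without single libraries, with ranges of -2.73 to 0.43 for *Egr1* (positive without EC replicate 2), -1.61 to 0.063 for *Gdf2* (KC replicate 1), -0.73 to 0.22 for *Il34* (KC replicate 1 or EC replicate 1), -0.11 to 0.20 for *Rsad2* (negative without EC replicate 1) and -0.26 to 0.059 for *Tap2* (positive without EC replicate 2); none of these genes was a DEG, and the cause was not tested.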

Other observations

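*Kctd12*, which encodes a GABA-B receptor subunit, had no count in the 3 KC control libraries, while the EC libraries held 3306, 2225 and 2988 counts and the control macrophages of the *Smad4* experiment 12768, 11413 and 13093 counts. The gene was chosen after its values were seen. Tables differ between the 2 macrophage sets, and the part of the counting in this difference was not tested.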
